A study of Mus musculus with 17 samples.

Results

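The genes described here are 10 listed as Fc receptors and phagocyte genes: Fcgr1, Fcgr2b, Fcgr3, Fcgr4, Fcer1g, Cd68, Mpeg1, Lyz2, Cd52 and Cd84. They were found by symbol among the 38355 Ensembl identifiers of the count files and were read in 17 hippocampal RNA libraries. All mice were untreated wild type C57BL/6J animals, and the hippocampus was dissected by hand, so every value is that of bulk tissue. Polyadenylated RNA of mice aged 3 months (3M, 5 libraries) and 24 months (24M, 6 libraries) was sequenced single-end, and that of other mice aged 3 months (3 libraries) and 29 months (29M, 3 libraries) paired-end. Comparisons were made within a library type, aged against 3M, so age beyond 24 months and library type cannot be told apart.

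Receptors for the constant part of immunoglobulin G sit on phagocytes and take up or signal from antibody-coated particles. Fcgr1, Fcgr3 and Fcgr4 encode activating receptors, which signal through the shared chain encoded by Fcer1g, while Fcgr2b encodes the inhibitory receptor. In brain tissue these receptors, and the lysosomal and surface proteins of phagocytes, are known mainly from microglia, with border macrophages and blood leukocytes as further sources. In bulk RNA, fewer cells of a type and less RNA per cell cannot be told apart.

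The libraries held between 9213474 and 28438296 counts on genes (median 14687436), which sets how far low genes can be resolved. The 24M replicates 1 and 4 differed by less than the sampling noise (a ratio of 0.406 to counting variance, against at least 1.23 in all other pairs of libraries) and were counted as 1 sample, which left 5 samples at 24M. Values are CPM, counts scaled by library total and TMM factor. A gene was called when edgeR's quasi-likelihood test gave an adjusted p of at most 0.05 and the log2 fold change (log2FC) was at least 0.5 in size. Errors of fold changes are standard errors (SE). Marker genes of hippocampal neurons were present in every library, and Rbfox3, a neuronal nuclear protein, lay between 239.4 and 300.7 CPM. The labels only number the samples of a group, so p-values measure the spread between these samples, which may in part be technical. The 9 hippocampal neuron markers summed to 1260.7 to 1653.4 CPM. The 10 striatal markers summed to 231.1 to 285.9 CPM but to 714.0 in 3M single-end replicate 4, and the 7 choroid plexus markers to 2041.6 to 8457.4.

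Of the 3M single-end libraries, replicate 2 stood apart in several of these genes. It was the highest of the 5 libraries in 9 of the 10 genes, and Fcgr2b was the exception. The lead was small in Fcgr1 (3.95 CPM against 3.61), Mpeg1 (38.4 against 36.3), Fcgr3 (10.3 against 9.96) and Cd84 (3.38 against 3.31). How many of all genes were highest in that library was not counted. Cd52 had 6.44 CPM there and at most 1.18 in the other 4, Fcgr4 had 1.25 CPM against at most 0.212, Lyz2 18.4 against 9.50 and Fcer1g 13.2 against 8.0. Across the 13842 tested genes with at least 1.5 CPM in that library, 37 were at least 2 times the highest of the other 4. The same count was 0 to 27 genes in the other libraries. A small constant was added to both values before this ratio was taken. By that ratio the first was H2-Q6, a class I major histocompatibility gene, with 5.97 CPM against at most 0.791. Next came Gbp4, an interferon-inducible GTPase, with 17 against 3.01, and Cd72, a leukocyte lectin, with 3.27 against 0.459. These genes were chosen after their values were seen. The 12 monocyte and neutrophil markers (first of them Ly6c2, Ccr2 and Plac8) summed to 4.31 CPM in replicate 2 and to 1.73 to 2.24 in the other 4. Of those markers none reached 1 CPM in replicate 2, 8 of 12 were highest there and Retnlg was at 0. The 12 homeostatic microglia markers summed to 472.9 CPM in it and to 420.4 to 468.8 in the others, and the 8 border macrophage markers to 12.7 against 8.40 to 11.9. The 6 B cell markers summed to 1.56 CPM in it and 0.494 to 0.742 in the others, with 5 of 6 highest there, and the 5 blood markers to 108.4 against 53.3 to 85.8, with all 5 highest there. The part these other cells have in the levels of replicate 2 was not tested. Each result at 24M is given below with and without this library where it bears on the call.

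The sequences show how well reads can be assigned to these genes. Fcgr2b, Fcgr4, Fcgr3, Fcer1g and Cd84 all lie within 932102 bp of chromosome 1 (GRCm38, chr1:170958617-171890718), and Fcgr2b and Fcgr3 share an identical stretch of 129 coding bases. It covers coding bases 278 to 406 of Fcgr2b and 263 to 391 of Fcgr3, over the junction of 2 exons in each, on the minus strand. In the lines here the shared bases are in capitals, with 12 bases of each gene on either side in lower case, read from GENCODE transcripts.

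Fcgr2b, chr1:170966674-170968081: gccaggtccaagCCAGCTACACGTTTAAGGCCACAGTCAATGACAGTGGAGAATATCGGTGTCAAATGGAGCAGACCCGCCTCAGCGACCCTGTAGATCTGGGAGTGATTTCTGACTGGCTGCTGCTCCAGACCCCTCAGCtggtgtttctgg

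Fcgr3, chr1:171054167-171057792: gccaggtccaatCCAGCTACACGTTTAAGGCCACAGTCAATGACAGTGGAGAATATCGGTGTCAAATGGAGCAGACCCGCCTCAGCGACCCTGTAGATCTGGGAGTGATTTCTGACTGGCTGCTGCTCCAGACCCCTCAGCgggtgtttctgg

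A read that falls wholly within the capitals fits both genes. Of all stretches of 50 bases in their transcripts, 12.5% of Fcgr2b and 12.8% of Fcgr3 also occur in another gene. In Fcgr3 all 166 such stretches were shared with Fcgr2b, and in Fcgr2b 241 of 436 were shared with Cplx2. Reads that aligned to more than 1 place were set apart by HTSeq (10.79% to 26.62% of a library) and were not counted for a gene. In Lyz2 the share was 15.4%, all with Lyz1, which was measured at 0 to 0.145 CPM. In Cd84 it was 3.05%, and Fcgr1, Fcgr4, Fcer1g, Cd68, Mpeg1 and Cd52 shared no stretch. Cd52 overlaps Crybg2 on the opposite strand over 172 exon bases, and the libraries do not keep the strand. Crybg2 had 0.424 to 1.41 CPM, and for Cd52 the source of reads in that overlap cannot be told apart. Reads that HTSeq found ambiguous between genes (1.01% to 1.42% of a library) were set apart and not counted for a gene. How many of them came from this overlap was not examined.

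RefSeq promoter windows (GRCm38.p6, from 250 bases before to 50 after the start site) were matched for 9 of the 10 genes, and Cd52 had none. The core letters bound by PU.1, the transcription factor of the myeloid lineage, were searched as GAGGAA on both strands. They occurred in 5 of the 9 genes, and in 31.3% of the 27025 genes with a window. The 5 were Fcgr1, Fcgr3, Fcgr4, Cd68 and Cd84. An AP-1 site, TGANTCA, occurred in Cd68 and Cd84, and in 9.0% of all genes. The interferon response element, by its letters, occurred only in Fcgr4 among the 9, and in 4.0% of all genes. These matches describe letters and not binding. The upstream parts of 4 windows are shown, 2 with the PU.1 letters and those of Mpeg1 and Lyz2, which hold none. Mpeg1 and Lyz2 were called at both ages, and so were Fcgr3 and Cd84, which hold the letters. Capitals mark GAGGAA, or its complement TTCCTC.

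Fcgr1, chr3:96293970-96294219, minus strand: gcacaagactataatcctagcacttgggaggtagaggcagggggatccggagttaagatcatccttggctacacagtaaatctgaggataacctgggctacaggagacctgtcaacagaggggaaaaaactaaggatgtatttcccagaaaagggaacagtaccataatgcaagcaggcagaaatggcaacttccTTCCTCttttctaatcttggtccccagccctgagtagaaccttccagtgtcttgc

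Cd68, chr11:69666171-69666420, minus strand: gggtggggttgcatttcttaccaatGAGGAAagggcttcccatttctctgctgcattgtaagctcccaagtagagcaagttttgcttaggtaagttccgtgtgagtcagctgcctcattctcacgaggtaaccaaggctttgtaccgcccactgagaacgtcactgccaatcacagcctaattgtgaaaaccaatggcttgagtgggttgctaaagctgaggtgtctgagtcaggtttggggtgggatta

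Mpeg1, chr19:12460520-12460769, plus strand: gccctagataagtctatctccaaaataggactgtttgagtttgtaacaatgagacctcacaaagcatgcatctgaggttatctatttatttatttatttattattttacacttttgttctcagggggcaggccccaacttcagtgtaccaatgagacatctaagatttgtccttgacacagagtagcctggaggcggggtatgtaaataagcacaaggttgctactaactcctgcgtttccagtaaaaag

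Lyz2, chr10:117282322-117282522, minus strand: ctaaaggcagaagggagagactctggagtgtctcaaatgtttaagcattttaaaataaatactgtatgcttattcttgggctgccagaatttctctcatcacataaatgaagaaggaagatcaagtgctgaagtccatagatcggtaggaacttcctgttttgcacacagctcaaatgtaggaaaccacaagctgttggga

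Counted from the start site, the letters lie at -55 to -50 in Fcgr1 and at -225 to -220 in Cd68. Cd68 held them again at 30 to 35, past the start site and outside the part shown.

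Most of the phagocyte genes were called higher with age at 1 or both ages. Of the 10 genes, 9 passed the filter on low counts in each comparison and Fcgr4 did not. At 24M, 5 were called higher (Fcgr2b, Fcgr3, Mpeg1, Lyz2 and Cd84) and none lower, while 1.34% of the 15683 genes tested were called higher. At 29M, 7 were called higher (Fcgr3, Fcer1g, Cd68, Mpeg1, Lyz2, Cd52 and Cd84) and none lower, and 1.34% of the 15097 genes tested were. All 9 had a log2FC above 0 at both ages, with a median of 0.52 at 24M and 0.73 at 29M, where the medians of all genes tested were -0.00319 and -0.0021. Both comparisons were made with edgeR's quasi-likelihood test and Benjamini-Hochberg adjustment over all genes tested.

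**Figure D1:**
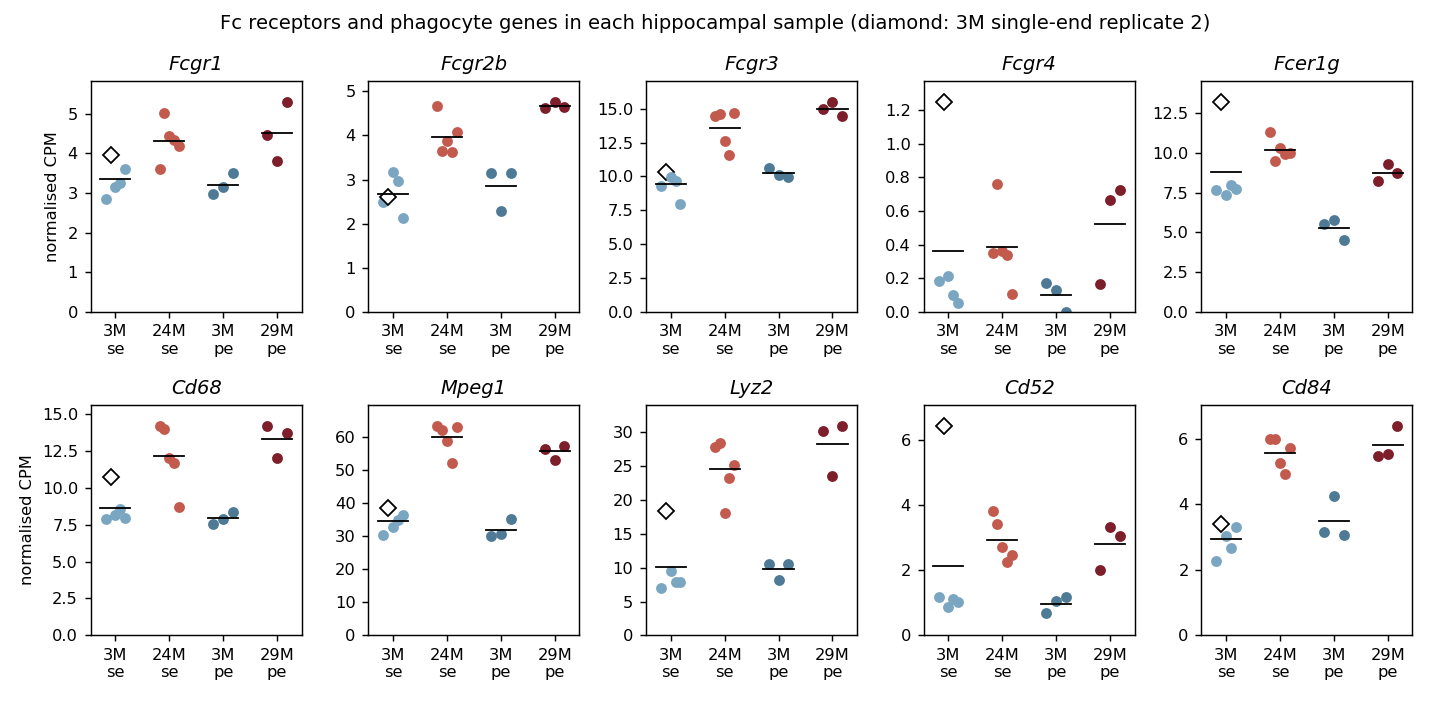
Normalised CPM of each of the 10 genes on its own axis, with a point for each sample (24M replicates 1 and 4 as 1 point) and a line for the group mean; se is single-end and pe paired-end. The diamond, 3M single-end replicate 2, lies far above the other 3M samples for Cd52 (6.44 CPM against at most 1.18), and at 29M the samples of 9 genes lie wholly above their 3M group.

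Among the activating receptors, Fcgr3 (low-affinity receptor III for immunoglobulin G) rose at both ages. Its 3M single-end samples had 9.32, 10.3, 9.96, 9.63 and 7.95 CPM, and those at 24M 14.5, 14.6, 12.6, 11.6 and 14.7. In paired-end libraries it had 10.6, 10.1 and 9.98 CPM at 3M and 15.0, 15.5 and 14.5 at 29M. No aged sample fell within the 3M range of its library type. The log2FC was 0.52 at 24M (SE 0.10, adjusted p = 0.0128) and 0.55 at 29M (0.09, adjusted p = 0.00471). With 3M single-end replicate 5 left out, or 24M replicate 2 or 6, the 24M call was lost, with log2FC values between 0.46 and 0.57 over all fits that left out 1 library. At 29M the call held in 6 of 6 such fits.

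Fcgr1, the high-affinity receptor, was not called at either age. It had 2.86, 3.95, 3.14, 3.26 and 3.61 CPM at 3M and 3.61, 5.01, 4.43, 4.35 and 4.19 at 24M. At 29M it had 4.46, 3.80 and 5.30 CPM against 2.97, 3.14 and 3.51 at 3M. The groups overlapped at 24M, where 4 of 5 aged samples were above every 3M sample, and were apart at 29M. Its log2FC values were 0.36 (SE 0.13, adjusted p = 0.0974) and 0.51 (0.18, adjusted p = 0.171).

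Fcgr4, another activating receptor, was at the limit of detection. Its raw counts were 4, 24, 6, 2 and 1 in the 3M single-end libraries and 7, 10, 7, 3, 6 and 1 at 24M. In paired-end libraries they were 2, 2 and 0 at 3M and 2, 7 and 10 at 29M. The highest count of all 17 libraries was that of 3M single-end replicate 2, and the groups overlapped at both ages. With no filter on low counts its log2FC was 0.17 at 24M (SE 0.62, adjusted p = 0.906) and 2.22 at 29M (0.77, adjusted p = 0.072), and a difference was not detectable at this depth.

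Fcer1g, the signalling chain that the activating receptors share, was called at 29M. It had 5.52, 5.76 and 4.5 CPM at 3M and 8.24, 9.32 and 8.72 at 29M, a log2FC of 0.72 (SE 0.14, adjusted p = 0.0104). This call was lost without 3M paired-end replicate 3 or 29M replicate 1 or 3 (log2FC values of 0.63 to 0.80 over the 6 fits). In single-end libraries it had 7.68, 13.2, 7.35, 8.0 and 7.71 CPM at 3M and 11.3, 9.48, 10.3, 9.90 and 10 at 24M. Every 24M sample was above 4 of the 5 3M samples and below replicate 2. The log2FC was 0.22 (SE 0.15, adjusted p = 0.369) and, without that replicate, 0.40 (adjusted p = 0.0292), still under the fold threshold.

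The inhibitory receptor Fcgr2b had 2.50, 2.60, 3.18, 2.96 and 2.12 CPM at 3M and 4.66, 3.64, 3.87, 3.62 and 4.09 at 24M. The groups did not overlap, and the log2FC of 0.56 was called (SE 0.14, adjusted p = 0.0358). It was lost when 3M single-end replicate 1, 2, 4 or 5 was left out, or 24M replicate 2, 3 or 6, where log2FC values of all such fits ran from 0.48 to 0.64 and the highest adjusted p under any setting was 0.162. At 29M it had 4.63, 4.76 and 4.65 CPM against 3.14, 2.29 and 3.15, again without overlap, and a log2FC of 0.73 (SE 0.18, adjusted p = 0.0512) that missed the threshold. The ratio of Fcgr3 to Fcgr2b in CPM per kilobase was 11.9 ± 1.19 at 3M and 11.5 ± 1.25 at 24M (SD, n = 5 each), and 12.2 ± 2.19 at 3M and 10.7 ± 0.24 at 29M (SD, n = 3 each). These ratios differed by less than the SD of the 3M samples at both ages. The size of the ratio depends on the exon lengths used, and its relative change with age does not.

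Of the proteins inside phagocytes, Mpeg1 and Lyz2 rose under every setting tried. Mpeg1 encodes perforin-2, a pore-forming protein that acts on engulfed bacteria. It had 30.4, 38.4, 32.6, 34.7 and 36.3 CPM at 3M and 63.3, 62.1, 58.8, 52.0 and 62.8 at 24M. In paired-end libraries it had 29.9, 30.5 and 35.1 CPM at 3M and 56.4, 53.0 and 57.3 at 29M. The lowest aged value, 52.0, was well above the highest at 3M, 38.4. The log2FC was 0.79 at 24M (SE 0.07, adjusted p = 0.000109) and 0.81 at 29M (0.07, adjusted p = 3.68e-05), which is 1.73- and 1.75-fold.

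Lyz2, the lysozyme of macrophages and neutrophils, had the largest fold change of the 9 genes at 24M with all samples, and at 29M it was close to that of Cd52. It had 6.96, 18.4, 9.50, 7.85 and 7.86 CPM at 3M and 27.8, 28.4, 18.1, 23.3 and 25.2 at 24M. The 24M sample at 18.1 CPM lay just below 3M replicate 2, the only overlap. At 29M it had 30.2, 23.6 and 31.0 CPM against 10.6, 8.25 and 10.6 at 3M, without overlap. The log2FC was 1.28 at 24M (SE 0.23, adjusted p = 0.0112), 1.59 without 3M replicate 2 (adjusted p = 0.000114), and 1.55 at 29M (SE 0.12, adjusted p = 1.67e-05). The monocyte and neutrophil markers, whose cells also make Lyz2, summed to 2.94 to 7.51 CPM at 24M and 1.67 to 3.71 at 29M, against 1.73 to 4.31 and 1.53 to 2.16 at 3M, and their part in the change was not tested.

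Cd68 encodes a glycoprotein of the phagocyte's lysosomes and endosomes. It had 7.87, 10.7, 8.12, 8.56 and 7.95 CPM at 3M and 14.2, 14.0, 12, 11.7 and 8.71 at 24M. Of the 5 aged samples 4 were above every 3M sample, and 24M replicate 6 was not. The log2FC of 0.498 lay just under the threshold of 0.5 (SE 0.13, adjusted p = 0.0406). It was called at 24M without 3M single-end replicate 2 (0.58, adjusted p = 0.0292) and without 24M replicate 4 or 6. At 29M it had 14.2, 12 and 13.7 CPM against 7.56, 7.85 and 8.36, a log2FC of 0.75 (SE 0.11, adjusted p = 0.00192), called under every setting.

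The surface proteins were Cd84 and Cd52. Cd84, a self-binding receptor of the SLAM family, had 2.27, 3.38, 3.04, 2.65 and 3.31 CPM at 3M and 5.98, 5.99, 5.26, 4.92 and 5.70 at 24M. The groups were far apart, with a log2FC of 0.92 (SE 0.13, adjusted p = 0.00276), called in 11 of 11 fits that left out a library. At 29M it had 5.47, 5.52 and 6.39 CPM against 3.14, 4.25 and 3.06. The groups did not overlap, and the log2FC was 0.72 (SE 0.18, adjusted p = 0.0458). That call was lost without 3M paired-end replicate 1 or 3, or without any of the 29M replicates 1, 2 and 3 (log2FC values of 0.63 to 0.91 over the 6 fits), and by DESeq2 (adjusted p = 0.185).

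Cd52, a short glycoprotein anchored to the surface of leukocytes, turned on a single library at 24M. It had 1.18, 6.44, 0.883, 1.12 and 1.04 CPM at 3M and 3.82, 3.41, 2.73, 2.26 and 2.47 at 24M. Every 24M sample was above 4 of the 3M samples and below replicate 2. With all samples the log2FC was 0.50 (SE 0.49, adjusted p = 0.553), and without 3M replicate 2 it was 1.47 (0.20, adjusted p = 0.00299) and called. At 29M Cd52 had 2.02, 3.33 and 3.05 CPM against 0.679, 1.05 and 1.17. These groups did not overlap, and its log2FC was 1.52 (SE 0.29, adjusted p = 0.011). The call at 29M was lost without 29M replicate 3, with log2FC values between 1.34 and 1.71.

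**Figure D2:**
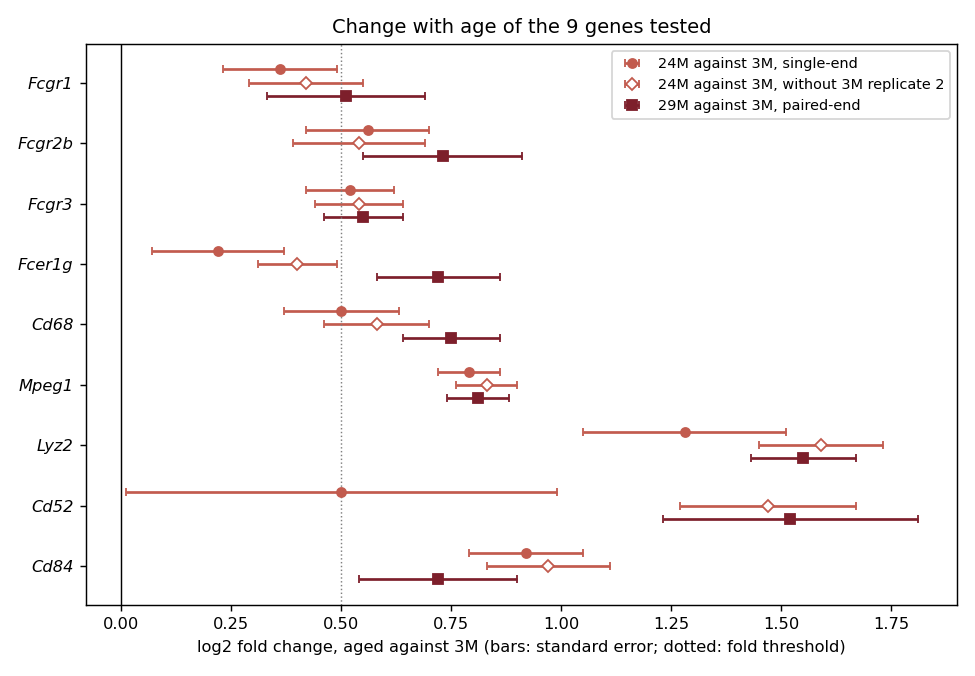
Log2FC of 9 genes against 3M, with bars for the standard error, at 24M with all samples (filled circles), at 24M without 3M single-end replicate 2 (open diamonds) and at 29M (squares). Leaving out that library moved Cd52 from 0.50 to 1.47 and Lyz2 from 1.28 to 1.59, and moved Mpeg1 only from 0.79 to 0.83.

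Without 3M single-end replicate 2, 6 of the 9 genes were called higher at 24M, as were 228 of all 15806 genes tested. Cd68 and Cd52 were gained and Fcgr2b was lost. All 9 then had every 24M sample above every remaining 3M sample, as 4.41% of all genes tested did. With that replicate kept, 4 of the 9 did (Fcgr2b, Fcgr3, Mpeg1 and Cd84), against 3.15% of all genes. At 29M all 9 did, against 11.9% of all genes.

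The change at 29M was set against that at 24M in 1 fit of all 4 groups. No member was called, and neither was any of the 16055 genes tested (0.0%). At an unadjusted p under 0.05 there were 1674 genes over all, and DESeq2 also called 0. Without 3M single-end replicate 5 the fit called 3 genes higher and 54 lower, none of them among the 10. The differences, as 29M minus 24M on the log2 scale, were 0.03 (SE 0.14) for Fcgr3, 0.01 (0.12) for Mpeg1 and -0.20 (0.21) for Cd84. They were larger and less certain for Fcer1g, 0.50 (0.24, adjusted p = 0.481), and for Cd52, 1.02 (0.83, adjusted p = 0.684). Without 3M single-end replicate 2 the difference was 0.04 for Cd52 (adjusted p = 0.982) and 0.31 for Fcer1g (adjusted p = 0.507). The wide standard errors do not show that the changes at the 2 ages were alike.

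Levels between genes can be compared only per kilobase of exon, here with all annotated exons of a gene merged. For Cd52 that length was 1187 bases against 514 in the transcript with its longest coding part. For Cd84 it was 6272 against 3291, and for Fcgr2b 5790 against 3544. It was also longer for Fcgr3, Fcer1g and Cd68, and the same for Fcgr1, Fcgr4, Mpeg1 and Lyz2. The order of the genes may change with the length used. Per kilobase of merged exon, the group means of the 10 genes fell into a high and a low set. In the 3M single-end group the samples of the sets overlapped, since Cd52, of the low set, reached 5.43 in replicate 2 and Fcgr3, of the high set, lay between 4.58 and 5.96. In the 3M paired-end samples Lyz2 had 7.46 ± 1.04 CPM per kilobase, Mpeg1 7.34 ± 0.653, Cd68 6.30 ± 0.324, Fcer1g 6.02 ± 0.767 and Fcgr3 5.89 ± 0.196 (SD, n = 3). The low set had 1.24 ± 0.106 for Fcgr1, 0.813 ± 0.215 for Cd52, 0.556 ± 0.107 for Cd84, 0.494 ± 0.0851 for Fcgr2b and 0.0798 ± 0.0708 for Fcgr4. Neighbours whose ranges overlapped, and so were not told apart, were Lyz2 and Mpeg1, Cd68 and Fcer1g, Fcer1g and Fcgr3, Cd52 and Cd84, and Cd84 and Fcgr2b. At 29M Lyz2 stood alone at the top with 21.5 ± 3.08, above Mpeg1 with 12.8 ± 0.530, and their ranges no longer overlapped. At 24M Lyz2 was also first, with 18.7 ± 3.14 against 13.8 ± 1.08 (SD, n = 5), and their ranges overlapped. In the 3M single-end group Fcer1g was first with 10.1 ± 2.83, a mean that holds replicate 2 at 15.1.

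**Figure D3:**
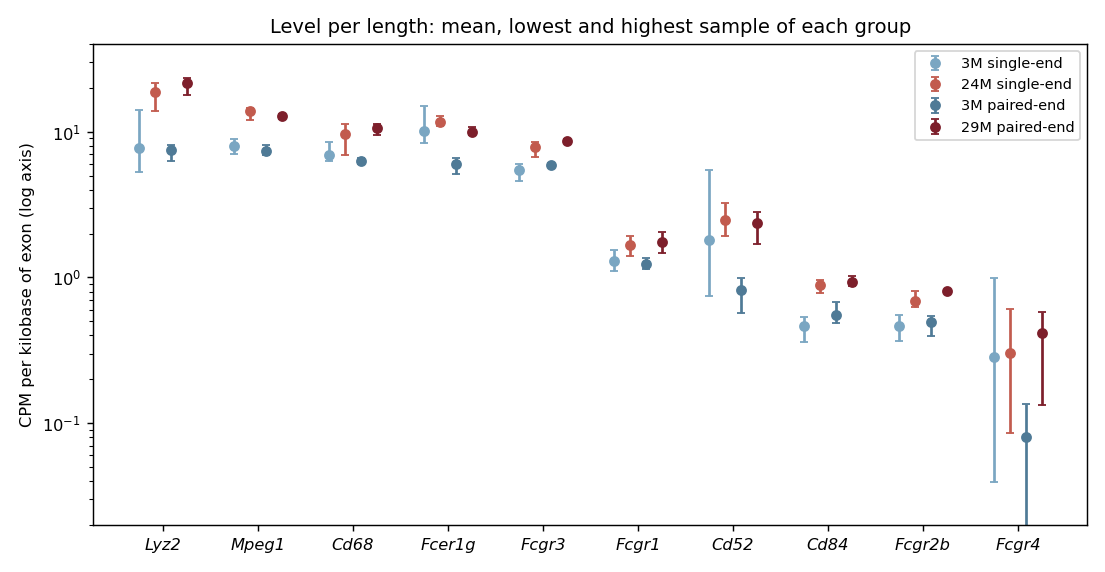
CPM per kilobase of exon on a log axis, with the mean of each group as a point and a bar from its lowest to its highest sample, for 10 genes ordered by their 3M paired-end mean; the lower end of the bar for Fcgr4 at 3M paired-end, a sample at 0, runs off the axis. Lyz2, Mpeg1, Cd68, Fcer1g and Fcgr3 form the high set, at 5.44 to 21.5 CPM per kilobase in group means, and Lyz2 is first in both aged groups.

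Homeostatic microglia genes also moved with age. The 12 listed (first Aif1, Cx3cr1 and P2ry12) summed to 420.4 to 472.9 CPM at 3M and 523.5 to 562.2 at 24M, and to 416.8 to 425.7 at 3M and 530.2 to 544.0 at 29M. All 12 had a log2FC above 0 at both ages, with medians of 0.32 and 0.35, and 1 was called at each age: P2ry12 at 24M (0.52) and, named after its value was seen, Tmem119 at 29M (0.51). Each gene's log2 CPM was therefore also taken relative to the mean log2 CPM of those 12, which rose by 0.33 at 24M and 0.34 at 29M.

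Relative to the microglia genes, Mpeg1 and Cd84 still had every 24M sample above every 3M sample, which 0.408% of all genes tested did. Mpeg1 was higher by 0.46 on this log2 scale and Cd84 by 0.58. Without 3M single-end replicate 2, Lyz2 and Cd52 joined them, 4 of 9 genes, where 0.567% of all genes did. The other differences at 24M were between -0.09 (Fcer1g) and 0.23 (Fcgr2b), with 0.02 for Fcgr1, 0.14 for Cd68 and 0.19 for Fcgr3. For Lyz2 and Cd52 it was 1.02 and 0.54. These 7 genes overlapped between groups. At 29M, 8 of the 9 genes stood apart in this way and Fcgr1 did not (0.13), against 1.55% of all genes. Lyz2 was higher by 1.17, Cd52 by 1.06, Mpeg1 by 0.47, Cd68 by 0.40, Fcer1g by 0.39, Cd84 by 0.38, Fcgr2b by 0.36 and Fcgr3 by 0.21. With the median of the 12 genes as reference, 5 of the 9 stood apart at 29M, and the share of all genes was not taken for that reference. No test was made on this scale.

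**Figure D4:**
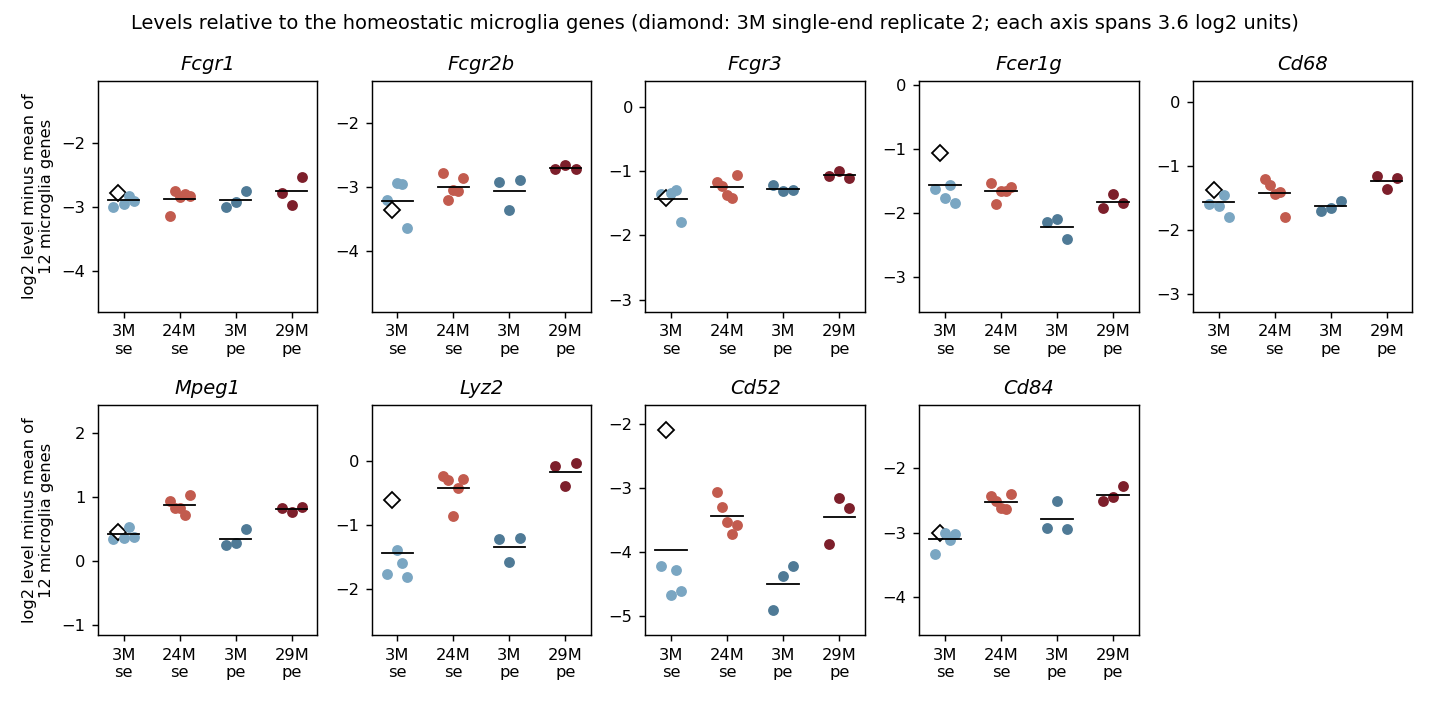
Log2 CPM of 9 genes minus the mean log2 CPM of 12 homeostatic microglia genes, with a point for each sample, a line for the group mean and axes of equal span. Lyz2 and Cd52 move most at 29M (1.17 and 1.06), Fcgr1 hardly moves at 24M (0.02), and the diamond marks 3M single-end replicate 2.

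Markers of other cell types were read in the same libraries. The 8 border macrophage markers (Mrc1, Cd163 and Pf4 first) summed to 9.64 to 18.1 CPM at 24M and 10.8 to 18.4 at 29M, against 8.40 to 12.7 and 8.57 to 12.2 at 3M, with none called among the 7 and 4 tested. All 7 and all 4 had a log2FC above 0, with medians of 0.47 and 0.54. The 12 T and NK cell markers summed to 2.47 to 4.30 CPM at 24M and 3.99 to 4.72 at 29M, against 2.52 to 8.30 and 2.04 to 3.51 at 3M. Cd3e, Cd3d and Cd3g, which define T cells, were each at most 0.36 CPM. The 6 B cell markers summed to 1.18 to 2.73 CPM at 24M and 1.60 to 2.19 at 29M, against 0.494 to 1.56 and 0.849 to 1.08 at 3M, so the groups overlapped at 24M and were apart at 29M. Of these markers Ms4a1 was at most 0.285 CPM, and Cd22, named after its value was seen, was the only tested marker and was called at 24M (2.23). The 6 mast cell markers, whose cells carry Fcer1g, summed to 4.27 to 8.05 CPM, with Cpa3, Tpsb2 and Cma1 at most 0.364. Of 5 blood markers, Hba-a1 and Alas2 were called at 29M (0.95 and 0.85), and the list summed to 75.9 to 164.9 CPM there against 70.6 to 83.7. At 24M it summed to 76.3 to 544.4 CPM, the highest in replicate 2, against 53.3 to 108.4, with none called. The part of these cells in the changes was not tested.

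Immunoglobulin chains and the receptors' partners were read from lists of pathway genes. Of 13 immunoglobulin chain genes, 10 were matched and 3 passed the filter at 24M, where Ighm, the heavy chain of immunoglobulin M, and Igkc, the kappa light chain, were called. The third was Ighg2c, a heavy chain of immunoglobulin G, with a log2FC of -0.43 (adjusted p = 0.656). At 29M Ighm alone passed the filter, and no chain of immunoglobulin G did. Ighm had 13.4, 19.8, 10.1, 20.3 and 12.9 CPM at 3M and 28.9, 31.5, 28.1, 31.2 and 29.6 at 24M, a log2FC of 0.97 (SE 0.16, adjusted p = 0.00587). At 29M it had 23.4, 47.7 and 21.7 CPM against 12.6, 13.6 and 12.2, and a log2FC of 1.24 (adjusted p = 0.0125), lost without 3M paired-end replicate 3. Igkc had at most 0.468 CPM at 3M and 1.11, 4.55, 0.567, 2.49 and 2.69 at 24M (log2FC 2.46, adjusted p = 0.0166). Igkc did not pass the filter at 29M, where it had 1.85, 7.32 and 0.654 CPM against 0.170, 0.196 and 0.539. Replicate 2 was the highest sample for both genes at 24M and at 29M. The 24M replicate 2 was also the highest of its group in blood markers (544.4 CPM) and in monocyte and neutrophil markers (7.51 CPM), and their part in these levels was not tested.

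Of 13 other Fc receptor genes, such as the receptors for immunoglobulin E, 4 passed the filter at 24M and 3 at 29M, and none was called (log2FC values of -0.57 to 0.56). Of 22 Fc receptor signalling genes tested, 17 had a log2FC above 0 at 24M (median 0.14) and 20 at 29M (median 0.48). Lat2, an adaptor of leukocytes, was called at 24M with 0.78 (adjusted p = 0.0113) and not at 29M (0.71, adjusted p = 0.0903). Its call at 24M was lost with the replicate number as a block and after thinning to the smallest library. Dock2, an activator of Rac, with 0.86 (adjusted p = 0.00979), Ptpn6, the phosphatase SHP-1, with 0.70 (adjusted p = 0.0366), and Vav1, an exchange factor, with 0.66 (adjusted p = 0.0277) were called at 29M. Ptpn6 and Vav1 each held in 1 of 6 fits without a library (0.56 to 0.84 and 0.59 to 0.71). Dock2 was lost without 29M replicate 1 or 3 (0.75 to 0.96). At 24M Ptpn6 was called only without 3M single-end replicate 2 (0.51, adjusted p = 0.0208). Dock2 (0.36, adjusted p = 0.092) and Vav1 (0.01, adjusted p = 0.972) were not called at 24M.

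The phagocyte oxidase makes reactive oxygen in the phagosome. Its membrane subunit Cybb had 0.682, 3.07, 0.742, 1.07 and 0.791 CPM at 3M and 3.61, 3.41, 3.14, 2.38 and 3.66 at 24M. Once more 3M replicate 2 lay among the aged samples. The log2FC was 1.37 (adjusted p = 0.042), lost when 3M single-end replicate 1, 3 or 4 was left out, or 24M replicate 2, 3 or 6 (1.21 at the lowest), and 1.96 without 3M replicate 2 (adjusted p = 0.000364). At 29M Cybb had 1.68, 3.14 and 3.42 CPM against 0.340, 0.720 and 0.450, a log2FC of 2.38 (adjusted p = 0.00312). Cyba, its partner, and Ncf1, a cytosolic subunit, were called at 29M, each with 0.64 (adjusted p = 0.0426 and 0.0138), and not at 24M (0.30 and 0.46), where Ncf1 was called without 3M single-end replicate 2 (0.63, adjusted p = 0.00801). They held in 1 and 2 of the 6 fits without a library, with log2FC values of 0.48 to 0.82 and 0.57 to 0.72. Of the 7 oxidase genes 6 were above 0 at 24M and all 6 tested were at 29M, with medians of 0.22 and 0.52.

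Among 13 tested scavenger and phagocytic receptors, 3 were called at each age, and none lower. Clec7a, the receptor for fungal glucans, had 0.389 to 0.791 CPM at 3M and 2.04 to 4.45 at 24M, with a log2FC of 2.53 (adjusted p = 0.00031), and of 3.21 at 29M (adjusted p = 4.42e-05). Itgax, an integrin alpha chain, rose by 2.03 (adjusted p = 0.0052) and 3.10 (adjusted p = 0.000732). Itgb2, the beta chain that pairs with it, rose by 0.56 (adjusted p = 0.0443) and 1.0 (adjusted p = 0.00112). Clec7a and Itgax were called in every fit without a library at both ages. At 24M Itgb2 was lost when 3M single-end replicate 1, 3 or 4 was left out, or 24M replicate 2, 3, 5 or 6 (0.50 at the lowest), and was 0.74 without 3M replicate 2 (adjusted p = 0.00148). The medians of the list were 0.26 and 0.31.

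Ly9, a SLAM family receptor like Cd84, was the only called gene among the 3 tested of the SLAM list, which does not hold Cd84. It had 0.106 to 0.675 CPM at 3M and 0.928 to 1.97 at 24M (log2FC 2.22, adjusted p = 0.011), and at 29M 1.60, 1.33 and 1.09 against 0.0849, 0.196 and 0 (3.55, adjusted p = 0.00235). The fold rests on few counts at 3M. Of 12 lysosomal and secreted macrophage genes tested, Ctss and Gpnmb were called at both ages. Ctss, cathepsin S, rose by 0.90 (adjusted p = 0.000109) and 0.82 (adjusted p = 3.43e-06), and Gpnmb, a lysosomal glycoprotein, by 0.68 (adjusted p = 0.000524) and 1.20 (adjusted p = 0.00132). Lgals3, galectin 3, was called at 29M (1.01, adjusted p = 0.0483) and held in 1 of 6 fits without a library (0.78 to 1.28). The list's medians were 0.22 and 0.17. Of 7 small leukocyte surface proteins tested, none was called at 24M, and Ptprc, the phosphatase CD45, and Cd37, a tetraspanin, were called at 29M with 0.96 (adjusted p = 0.00883) and 0.76 (adjusted p = 0.0316). At 24M Ptprc had 0.61 (adjusted p = 0.0928), and 0.87 without 3M single-end replicate 2 (adjusted p = 0.00664). At 29M Ptprc was lost without 29M replicate 1 or 3 (0.84 to 1.1), and Cd37 held in 2 of 6 such fits (0.61 to 0.89).

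**Figure D5:**
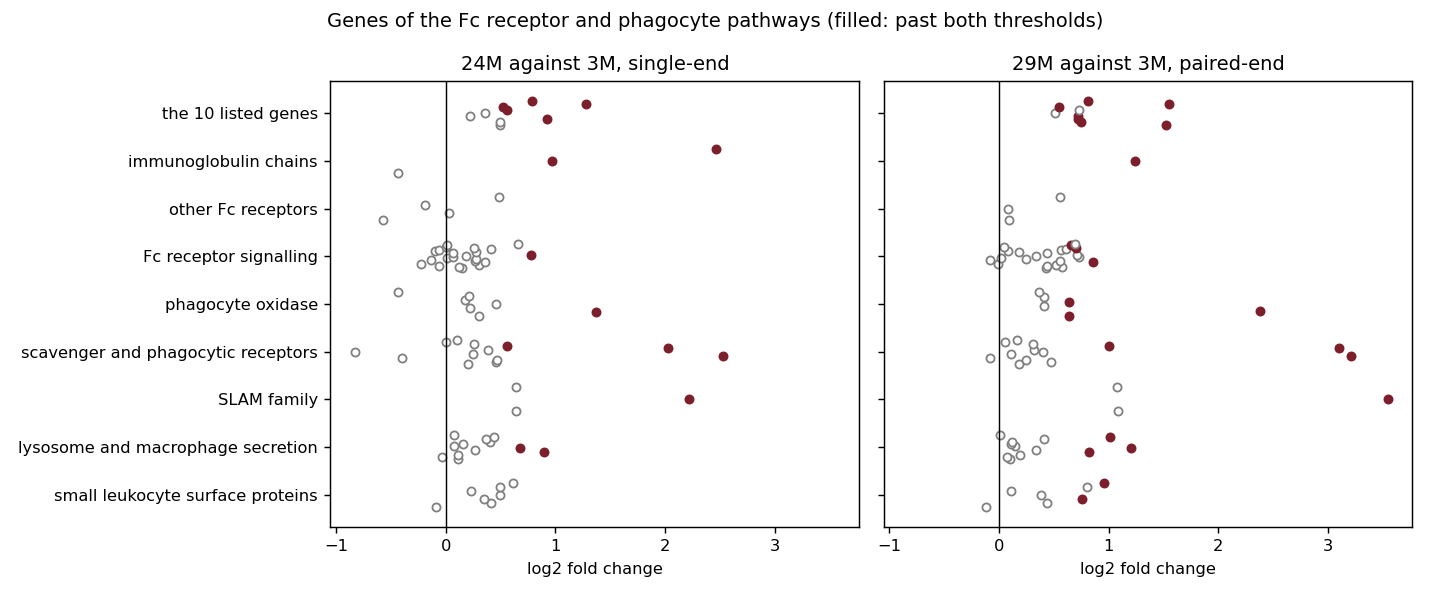
Log2FC against 3M of every tested gene in 9 lists (the 10 listed genes first), at 24M on the left and at 29M on the right, with called genes filled. Far to the right are Clec7a (2.53 and 3.21), Ly9 (2.22 and 3.55), Itgax (2.03 and 3.10) and, at 24M, Igkc (2.46), and no called gene lies below 0.

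Last, the spread within groups was examined, after each sample's deviation from its own group mean had been taken, which removes the age difference. Over 16 samples, the genes most like the mean of the 9 genes were Gbp2 (Pearson r = 0.930), Irgm2 (0.913), Lcp1 (0.913), Rac2 (0.893) and Igtp (0.889). Gbp2, Irgm2 and Igtp encode interferon-inducible GTPases, Lcp1 an actin-bundling protein of leukocytes and Rac2 a GTPase of the oxidase. Among the 9 themselves, Lyz2 and Cd52 followed the mean of the others most closely (0.833 and 0.809) and Fcgr2b did not (0.011). These correlations rested on 3M single-end replicate 2. Without it, over 15 samples, the genes most like the mean were Slu7, Sgcz, Naa38, Mrpl18 and Elavl4 (0.831 to 0.877), none of which had been among the first 5. The values of Lyz2 and Cd52 then fell to 0.398 and 0.272, and that of Mpeg1 was 0.599 against 0.627. All samples share the scaling by library total.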

How the data were processed

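Hippocampal RNA was measured in 17 libraries. Reads were aligned to GRCm38.p2 by STAR 2.3.0 and assigned to genes by HTSeq, and the authors deposited the raw counts without normalization. The gene annotation behind the counts was not given in the sources used here. HTSeq's summary lines were dropped before totals were taken, and reads with no feature were 8.59% to 15.87% of a library. Of 38355 identifiers, 36602 were named from GENCODE M21, which also gave exon lengths, merged over all annotated transcripts of a gene.

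Counts were tested with edgeR 4.0.16 in R 4.3.3 (quasi-likelihood, TMM, default filter), with Benjamini-Hochberg adjustment over all genes tested. A standard error is the unsigned log2 fold change over the square root of its F value. Log2 CPM used a prior count of 2. For 24M replicates 1 and 4 their rounded mean stood as 1 sample, a choice known from earlier results of these data. On simulated data, 200 of 200 changed genes among 15549 were recovered for 24M (1 false call) and 191 of 200 among 14955 for 29M (9 false calls). The changed genes were not drawn from the lowest expressed ones, and a single dispersion was used for all genes. Their estimated log2 fold changes had medians of 0.991 and 1.01 in size. The simulation therefore does not show how well smaller changes, or changes in low genes, are recovered.

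Alternatives were DESeq2 1.42.0, its size factors in edgeR, no filter, a filter of 1 CPM, 1 fit of all 4 groups, the replicate number as a block, no fold threshold, thinning to the smallest library, each library left out, and the 24M pair kept apart or left out. Leaving out samples from the levels relative to microglia genes and from the correlations was added after seeing the data. The members, the gene lists and the marker lists were chosen with earlier results of these data known. Genes named are the members, up to 4 called genes per pathway list and comparison by smallest p, the first 3 markers of each list, and the 5 genes most like the members. Symbols Ighd, Iglc1, Iglc3 and Sh2d1b1 were not matched. Protein sequences were not used here.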

Additional observations from a re-analysis of the deposited data

Results flagged for a closer look

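Within groups of 5 single-end samples, 56 groups over 28 genes (the 10 genes and 18 called pathway genes) were searched for a sample whose gap to its nearest neighbour exceeded 0.71 of the group's range. Chance gives about 1 in 20, or 2.8 of 56. In all 12 did, and 11 of them were the highest value in 3M single-end replicate 2. Among the 10 genes these were Cd52 (gap of 0.946 of the range, 6.44 CPM against 1.18), Fcer1g (0.888, 13.2 against 8.0), Fcgr4 (0.864, 1.25 against 0.212), Lyz2 (0.779, 18.4 against 9.50) and Cd68 (0.756, 10.7 against 8.56). Among the pathway genes they were Ptpn6 (0.951, 8.42 CPM against 4.27), Itgb2 (0.843), Cybb (0.837), Dock2 (0.817), Ptprc (0.788) and Vav1 (0.776). The remaining gap was Igkc at its lowest in 3M single-end replicate 3 (0.728, 0.247 CPM against 0.408). The groups share a library, so the 11 are not independent. No difference between the 2 ages passed the threshold for any of the 10 genes.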

How the results depend on the processing

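The number of the 9 genes called higher at 24M was 5, beside 210 of all genes tested. It was 3 with the pair of replicates left out (112 of all genes) and 3 to 6 with 1 library left out (91 to 394). At 29M the number was 7, beside 202 of all genes. It was 4 with all 4 groups in 1 fit (Fcer1g, Cd52 and Cd84 lost, 83 of all genes) and 4 to 7 with 1 library left out (113 to 207). The other settings, apart from the block given below, gave 5 or 6 at 24M and 6 to 8 at 29M. No member was called in the difference between ages under any setting (0 to 0). The number apart from 3M relative to microglia genes was 2 to 4 at 24M with 1 sample left out (0.434% to 0.619% of all genes). At 29M it was 8 in each such case (1.95% to 2.44% of all genes). With the median as reference it was 5 at 29M, and the share of all genes was not taken for it. Same-numbered samples share only a number: the correlation of their deviations ran from -0.137 to 0.0535 at 24M, and at 29M from -0.069 to 0.0965. With the replicate number as a block, 2 members were called at 24M and 6 at 29M, beside 58 and 203 of all genes called higher. Mpeg1 and Lyz2 were called under every setting at both ages. Signs turned only in values near 0: the difference between ages of Mpeg1 was -0.01 with the 24M pair kept apart and -0.04 to 0.08 with 1 library left out, and without a library it was -0.00 to 0.23 for Fcgr1 and for Fcgr2b, -0.03 to 0.08 for Fcgr3 and -0.06 to 0.36 for Lyz2. Vav1 at 24M was -0.09 after thinning, -0.01 with the pair kept apart and -0.06 to 0.21 without a library. The causes of these shifts were not tested. Fcgr4, with 0 to 24 counts a library, is limited by depth.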
